A study of Homo sapiens with 6 samples.

Results

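The guanylate-binding proteins (GBP) and the apolipoprotein L (APOL) family are each a set of neighbouring genes, and 9 of them are described here, *GBP1*, *GBP2*, *GBP3*, *GBP4*, *APOL1*, *APOL2*, *APOL3*, *APOL4* and *APOL6*. They were chosen by name, as the rows whose gene symbol equals 1 of these 9, out of 22807 genes in the table. RNA sequencing was done on MDA-MB-453, an established HER2+ breast cancer cell line. Of the 6 libraries, 3 came from cells given scrambled siRNA (genotype label WT) and 3 from cells given *DUSP6* siRNA (genotype label DUSP6 KD). *DUSP6* encodes a phosphatase that switches off ERK. The comparison asks which genes change when *DUSP6* is depleted, and all cells of both groups were transfected, with the lipid reagent that the study's methods name for its transient transfections. The study describes 3 different siRNAs per group, and which one each library received is not known. A library is therefore counted as 1 replicate. The p-values weigh a group difference against the spread between these libraries, which may include differences between siRNAs.

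GBPs are large GTPases that interferon induces in many cell types. They assemble on the membranes of intracellular bacteria and parasites, where GBP1 forms a coat that recruits other family members and caspase-4. APOL proteins are lipid-binding proteins, of which APOL1 is secreted and rides on high-density lipoprotein as the trypanosome-killing factor of human serum, while the others stay inside the cell. Both families are known as target genes of interferon, through transcription factors that include STAT2, IRF9 and IRF1.

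With *DUSP6* siRNA 4 of the APOL genes were far higher and *GBP2*, the most abundant GBP, was lower. *APOL1* rose 73.9-fold, *APOL3* 23.4-fold, *APOL6* 10.7-fold and *APOL2* 3.69-fold by the ratio of the group means, while *GBP2* was 6.76-fold lower. *GBP1* was higher as well but had at most 30 reads in any library. *GBP3*, *GBP4* and *APOL4* were also low in reads and are described with that limit.

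The promoters show what 3 of the GBP genes share in sequence. A RefSeq promoter (GRCh38.p14) was matched by symbol for 3 of the 9 members, *GBP1*, *GBP3* and *GBP4*. Each is given 5′ to 3′ on the strand of its gene, which is the minus strand of chromosome 1, from 160 bases before the start site to 12 bases after it (172 bases). The stretches lie at chr1:89065197-89065368 for *GBP1*, chr1:89022855-89023026 for *GBP3* and chr1:89198931-89199102 for *GBP4*. Capitals mark a match to the core of the interferon-stimulated response element, searched as GAAA, any 2 bases and GAAA, which stands on the opposite strand in all 3 and so is read here as its reverse complement.
GBP1: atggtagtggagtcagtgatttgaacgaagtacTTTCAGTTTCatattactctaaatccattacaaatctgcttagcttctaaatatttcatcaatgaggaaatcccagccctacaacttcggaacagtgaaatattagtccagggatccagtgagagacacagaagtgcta
GBP3: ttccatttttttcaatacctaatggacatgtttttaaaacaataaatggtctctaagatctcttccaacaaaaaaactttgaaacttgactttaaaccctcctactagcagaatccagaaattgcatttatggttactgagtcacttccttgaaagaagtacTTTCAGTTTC
GBP4: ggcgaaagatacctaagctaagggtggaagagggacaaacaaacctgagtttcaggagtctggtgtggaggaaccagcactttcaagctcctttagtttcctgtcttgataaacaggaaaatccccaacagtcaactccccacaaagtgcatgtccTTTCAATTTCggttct
The match began at base -127 in *GBP1*, at base 3 in *GBP3* and at base -4 in *GBP4*, counted from the RefSeq start site at base 1. That start site was also the start of the main GENCODE transcript of each gene, while other annotated transcripts of *GBP1* and *GBP3* begin up to 152 and 28 bases earlier, so the marked letters of *GBP1* lie inside its longest annotated span. Over all 35116 promoters of 300 bases, searched on both strands, 3.57% held this core. The letters TTCNNNGAA, the gamma-activated site, were in 7.66% of promoters, and among the 3 members they stood once, as TTCCTTGAA at base -15 of *GBP3*. Within the printed stretches, *GBP1* and *GBP3* had 17 bases in a row in common, ending with the marked letters. The printed stretch of *GBP3* ends there too, so whether the run continues was not examined. Neither stretch shared more than 8 bases in a row with that of *GBP4*. These matches are descriptions of the letters, and binding was not measured.

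The libraries held 45546981 to 85729785 reads on genes, recovered from the normalised values. The normalised value is a CPM after the authors' scaling between libraries, and 1 read is worth between 0.0121 and 0.0202 on this scale. *DUSP6* itself stood at 209, 110 and 114 in the scrambled siRNA libraries, given here and below in the order of replicates 1, 2 and 3, and at 39.4, 24.5 and 35.2 in the *DUSP6* siRNA libraries. The groups did not overlap, and the log2 fold change was -2.05 (SE 0.25, limma adjusted p = 3.09e-04). Of the cell line's markers, *ERBB2* was abundant in both groups and lower with *DUSP6* siRNA, from 984 ± 94.3 to 495 ± 33.6 (SD, n = 3). *KRT18* and *KRT8* were lower by 0.51 and 0.42 on the log2 scale (limma adjusted p = 0.00356 and 0.0448). *EPCAM* was not called, at 268 ± 47.2 with scrambled and 288 ± 11.3 with *DUSP6* siRNA (limma adjusted p = 0.476). *PGR*, low at 2.04 ± 0.239 and 2.10 ± 0.112, was not called either (limma adjusted p = 0.856). *ESR1* had at most 9 reads in any library. Over 8 markers of immune, endothelial and fibroblast cells, the summed value was 86.2 to 111 with scrambled and 168 to 197 with *DUSP6* siRNA. *COL1A1* carried it, from 92.2 ± 12.2 to 173 ± 16.7. The immune marker *CD68* was present in both groups and not called, at 5.00 ± 0.52 and 4.53 ± 1.03 (limma adjusted p = 0.518). *CD14*, *PECAM1* and *VWF* had at most 19 reads in any library, and *PTPRC*, *CD163* and *COL3A1* at most 4. The part of *COL1A1* in the results below was not tested.

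*APOL1* was close to silent in the control cells. Its normalised value was 0.208, 0.211 and 0.277 in the scrambled siRNA libraries, which is 14, 11 and 23 reads, and 16.3, 15.9 and 19.3 in the *DUSP6* siRNA libraries, which is 804, 1297 and 1251 reads. All 3 *DUSP6* siRNA libraries were far above all 3 controls, and the lowest of them was 57.2 times the highest control. On the log2(value + 1) scale, which understates the change of low genes, the difference was 3.88 (95% interval 3.61 to 4.14, SE 0.12, limma adjusted p = 1.67e-07). That was the 24th highest of the 12862 genes tested, a set that *APOL1* entered only through its *DUSP6* siRNA libraries. On the recovered reads edgeR gave a log2 fold change of 6.18 (adjusted p = 5.49e-08). In bulk libraries such as these, more cells with the transcript and more transcript per cell cannot be told apart.

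*APOL2*, a relative of APOL1 without the signal peptide for secretion, was already well expressed. It stood at 30.7, 33.6 and 31.6 with scrambled siRNA and at 123, 99.4 and 132 with *DUSP6* siRNA. The control libraries lay close together and the *DUSP6* siRNA libraries were all higher, with replicate 2 the lowest of them. The means were 31.9 ± 1.5 and 118 ± 16.6 (SD, n = 3), and the difference was 1.84 on the log2(value + 1) scale (95% interval 1.58 to 2.10, SE 0.12, limma adjusted p = 9.47e-06). Its fold change was the smallest of the 4 APOL genes that limma tested, and its gain in normalised value was the largest.

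*APOL3*, an intracellular member described as a membrane-dissolving factor against bacteria, was low in the controls. Its value was 0.417, 0.441 and 0.362 with scrambled siRNA (28, 23 and 30 reads) and 9.64, 7.77 and 11.1 with *DUSP6* siRNA (477, 635 and 721 reads). Again the groups were far apart, and the lowest *DUSP6* siRNA library was 17.6 times the highest control. limma gave a difference of 2.89 (SE 0.14, adjusted p = 2.00e-06) and edgeR, on reads, 4.56 (adjusted p = 4.62e-07). *APOL3* too entered the limma test only through its *DUSP6* siRNA libraries, with a control mean of 0.406.

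*APOL6*, which has been described as a pro-apoptotic member of the family, had an intermediate level in the controls, 4.06, 3.45 and 3.99. In the *DUSP6* siRNA libraries it was 45.4, 29.4 and 48.7. Replicate 2 was the lowest of the *DUSP6* siRNA libraries here too, and was still above 7 times the highest control (7.25 times). The difference was 3.10 on the log2(value + 1) scale (95% interval 2.69 to 3.50, SE 0.18, limma adjusted p = 6.38e-06).

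*APOL4* was the exception in level, with 3 reads in each scrambled siRNA library and 5, 12 and 14 reads in the *DUSP6* siRNA libraries, or values of 0.0446, 0.0575 and 0.0362 against 0.101, 0.147 and 0.216. The groups did not overlap, although the counts are small. edgeR gave a log2 fold change of 1.77 (adjusted p = 0.0220), and the call did not hold with DESeq2 (1.78, adjusted p = 0.0865). The edgeR call was also lost without scrambled siRNA replicate 1 (adjusted p = 0.0540) or 3 (0.0584) and without *DUSP6* siRNA replicate 2 (0.0553) or 3 (0.104), each on 5 libraries.

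**Figure D1:**
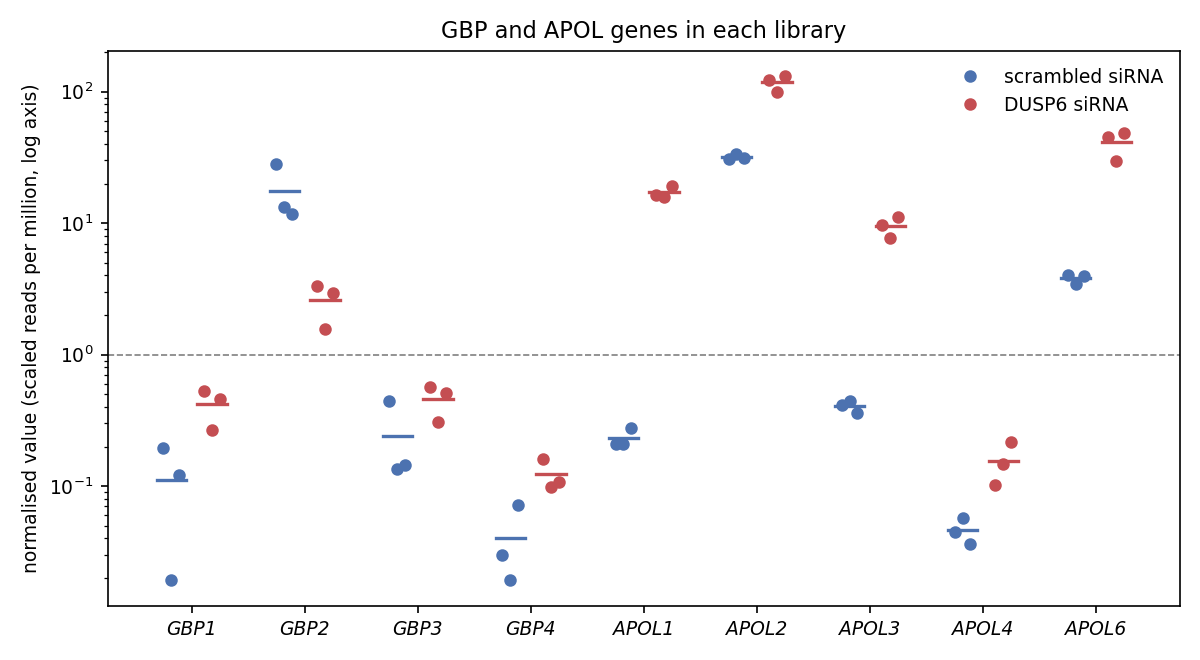
Normalised value (scaled CPM, log axis) of the 9 genes in each library, scrambled siRNA in blue and *DUSP6* siRNA in red, with a bar at each group mean and a dashed line at a value of 1, the mean that the limma test required. *APOL1*, *APOL2*, *APOL3* and *APOL6* are higher in all 3 *DUSP6* siRNA libraries, *GBP2* is lower in all 3, and *GBP1*, *GBP3*, *GBP4* and *APOL4* stay under 1 in every library.

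*GBP2* went the other way. GBP2 is a family member that carries a lipid anchor and is recruited to the GBP1 coat. Its value was 28.0, 13.2 and 11.8 with scrambled siRNA, which is 1881, 689 and 976 reads, and 3.34, 1.58 and 2.92 with *DUSP6* siRNA, which is 165, 129 and 189 reads. The groups did not overlap, and the lowest control was 3.53 times the highest *DUSP6* siRNA library. Scrambled siRNA replicate 1 stood above the other controls for *GBP2*, as it did for *DUSP6*. The difference was -2.30 on the log2(value + 1) scale (95% interval -3.0 to -1.61, SE 0.31, limma adjusted p = 4.85e-04), the 24th lowest of the 12862 genes tested. Without that replicate it was -1.93 (limma adjusted p = 7.76e-04), so the call did not rest on it.

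*GBP1*, the member that starts the coat on bacteria and a common marker of the response to interferon gamma, was barely present. It had 13, 1 and 10 reads with scrambled siRNA and 26, 22 and 30 reads with *DUSP6* siRNA, or values of 0.193, 0.0192 and 0.121 against 0.526, 0.269 and 0.464. All 3 *DUSP6* siRNA libraries were above the controls, but the lowest was only 1.39 times the highest control. edgeR called the gene higher on these reads, with a log2 fold change of 1.81 (adjusted p = 0.0212). The call was lost without *DUSP6* siRNA replicate 1 (1.63, adjusted p = 0.0710) and without replicate 3 (1.72, adjusted p = 0.0653). Of the runs of 50 bases in the *GBP1* transcript, 14% also occur in other genes, most of them in the pseudogene *GBP1P1*, so the division of reads between these copies is uncertain.

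*GBP3* and *GBP4* encode members that join the coat with GBP1. For *GBP3* the reads were 30, 7 and 12 with scrambled and 28, 25 and 33 with *DUSP6* siRNA, and its values, 0.446, 0.134 and 0.145 against 0.566, 0.306 and 0.510, overlapped because of scrambled siRNA replicate 1. The log2 fold change of *GBP3* was 0.89 (edgeR adjusted p = 0.164), and without scrambled siRNA replicate 1 it was 1.68 (adjusted p = 0.0173). For *GBP4* the reads were 2, 1 and 6 against 8, 8 and 7, with values of 0.0298, 0.0192 and 0.0723 against 0.162, 0.0978 and 0.108 that did not overlap. Its log2 fold change of 1.41 did not pass the threshold (edgeR adjusted p = 0.0811). It passed without scrambled siRNA replicate 3 (2.15, adjusted p = 0.0348) and with limma on all genes (0.11 on the log2(value + 1) scale, adjusted p = 0.0325). At 1 to 8 reads per library the size of a change in *GBP4* was poorly determined.

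Over the 9 genes, edgeR on the recovered reads called 6 higher and 1 lower, where 17.4% of the 18500 genes with at least 10 reads in all were called higher and 19.0% lower. *GBP4* and *APOL4* had 9 reads each over the controls, so that they reached 10 reads through the *DUSP6* siRNA libraries. In 7 of the 9 genes the *DUSP6* siRNA libraries were all above the controls, against 25.7% of the same 18500 genes, and in 1 gene, *GBP2*, all below, against 25.2%. limma, which the study's methods name, tested only genes whose mean over the 6 libraries was 1 or more, 5 of the 9, and the 4 others fell under that limit. *APOL1* and *APOL3* reached it only through the *DUSP6* siRNA libraries. limma called 2540 of 12862 tested genes higher (19.7%) and 3179 lower (24.7%). For the 9 single genes, as for every 3 against 3, an exact permutation test cannot go below p = 0.1, which 8 of the 9 reached. For *GBP3* the two-sided exact permutation p was 0.2.

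**Figure D2:**
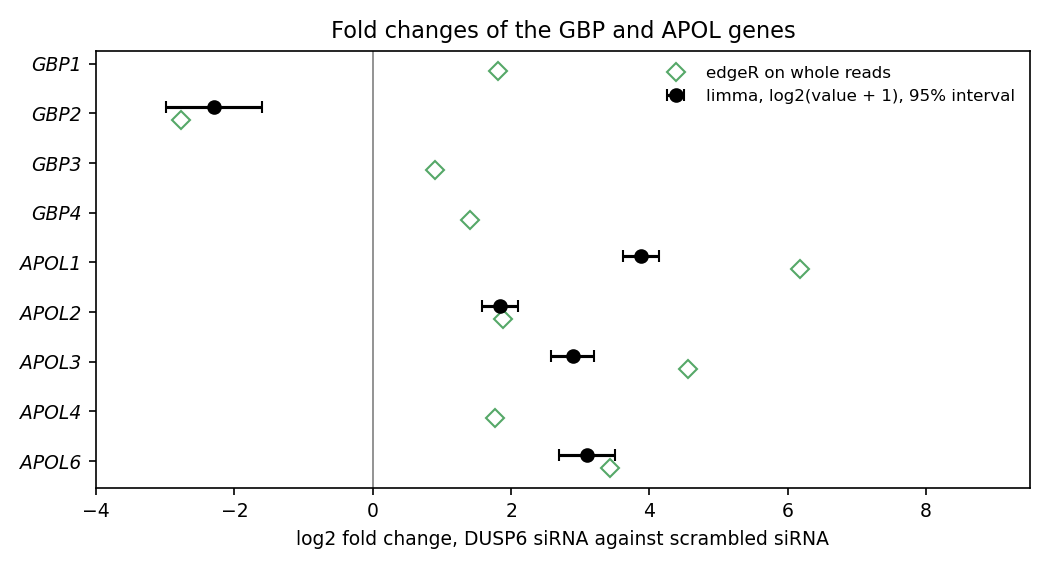
Log2 fold change of each gene, *DUSP6* siRNA against scrambled siRNA, from limma on log2(value + 1) with its 95% interval (black, 5 genes whose mean reached 1) and from edgeR on recovered reads (green diamonds, all 9 genes). *GBP2* alone lies to the left of 0, at -2.30 by limma and -2.77 by edgeR, and *APOL1* lies farthest to the right, at 3.88 and 6.18.

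The order of the genes within the set changed. Divided by the length of the annotated main transcript, the scrambled siRNA libraries had most *APOL2* (13.1 ± 0.618 per kilobase, SD, n = 3), then *GBP2* (4.32 ± 2.20), *APOL6* (0.381 ± 0.0332) and *APOL3* (0.199 ± 0.0199). Below them *APOL1* (0.0830 ± 0.0140), *GBP3* (0.0796 ± 0.0584), *GBP1* (0.0385 ± 0.0304) and *APOL4* (0.0150 ± 0.0035) overlapped from each one to the next, and *GBP4* was last. In the *DUSP6* siRNA libraries *APOL2* still led, with 48.5 ± 6.85 per kilobase, and *APOL1* had moved to the second place, at 6.14 ± 0.679. It was followed by *APOL3* at 4.66 ± 0.828 and *APOL6* at 4.09 ± 1.02, whose libraries overlapped. *GBP2* came after all of these, at 0.639 ± 0.225 per kilobase.

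The sum over the GBP members was lower and the sum over the APOL members higher with *DUSP6* siRNA. In the controls the GBP sum was nearly all *GBP2* (97.9% on average), so its fall is that of *GBP2*. *GBP1* and *GBP4* were above the controls in every *DUSP6* siRNA library, and *GBP3* overlapped. The sum of the 4 GBP values was 28.7, 13.4 and 12.1 with scrambled siRNA and 4.59, 2.25 and 4.00 with *DUSP6* siRNA, and the sum of the 5 APOL values was 35.4, 37.7 and 36.2 against 194, 153 and 211. Neither sum overlapped between groups, and the means differed 4.99-fold downwards and 5.10-fold upwards (two-sided exact permutation p = 0.1 each, the smallest possible). The APOL sum was 1.24, 2.82 and 2.99 times the GBP sum in the controls and 42.3, 67.8 and 52.7 times in the *DUSP6* siRNA libraries. Scrambled siRNA replicate 1, with its high *GBP2*, had the lowest of these ratios.

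Within the GBP family *GBP2* held 97.9% ± 0.769 of the summed value in the controls and 71.9% ± 1.58 with *DUSP6* siRNA (SD, n = 3). The rest went to *GBP3* (1.25% ± 0.282 to 12.9% ± 0.639), *GBP1* (0.605% ± 0.431 to 11.7% ± 0.261) and *GBP4* (0.282% ± 0.274 to 3.52% ± 0.823). The GBP sum itself was lower with *DUSP6* siRNA, so a larger share of *GBP1*, *GBP3* or *GBP4* is not by itself a higher level. Within the APOL family *APOL2* went from 87.6% ± 1.24 to 63.6% ± 1.41. *APOL6* took 10.5% ± 1.24 of the controls' sum and 21.9% ± 2.28 with *DUSP6* siRNA, *APOL1* 0.637% ± 0.112 and 9.31% ± 1.01, and *APOL3* 1.11% ± 0.101 and 5.11% ± 0.154. The long transcript of *APOL6* weighs in its share: with values divided by transcript length it took 2.76% and 6.37%, less with *DUSP6* siRNA than *APOL1* (9.73%) and *APOL3* (7.32%). In these 8 genes the shares did not overlap between groups, with an exact permutation p of 0.1 (0.1125 after Benjamini-Hochberg adjustment over the 9 genes). *APOL4* overlapped (0.126% ± 0.0262 and 0.0836% ± 0.0274, exact permutation p = 0.2). The shares of a family are parts of the same whole, so they are tied to each other and are not 9 independent results.

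**Figure D3:**
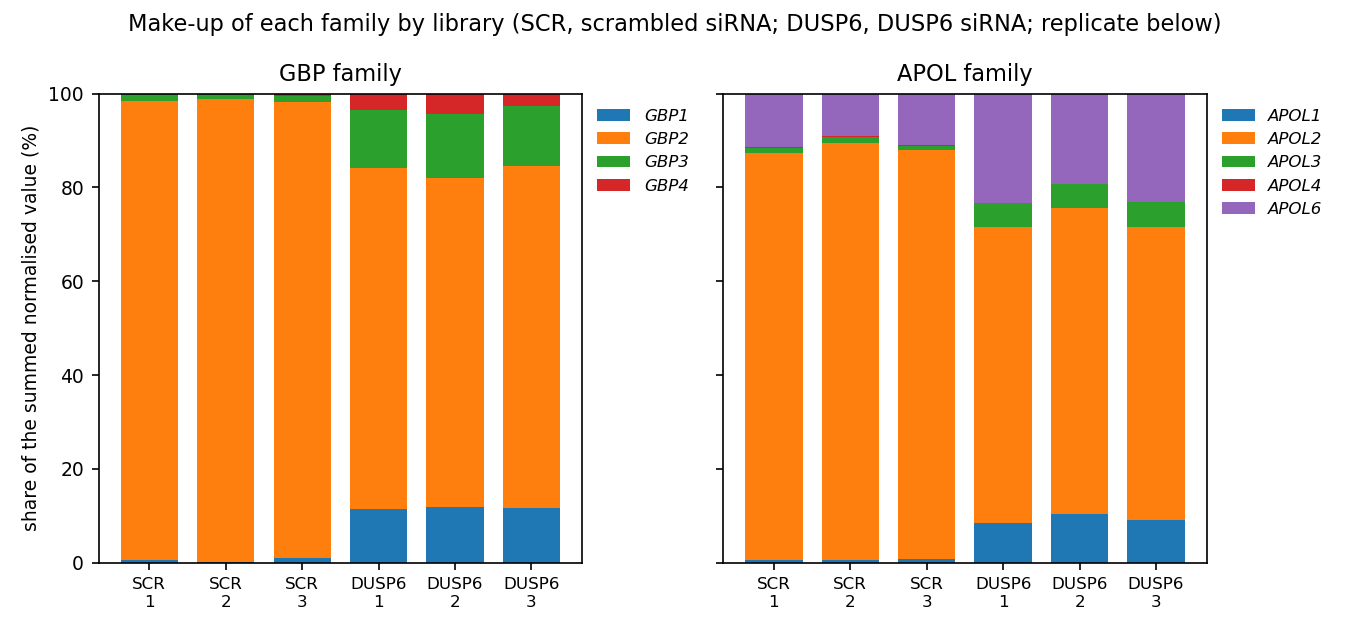
Share (%) of the summed normalised value of each family that each gene took, in the 3 scrambled siRNA (SCR) and 3 *DUSP6* siRNA (DUSP6) libraries. *GBP2* takes 97.9% on average of the GBP sum in the controls and 71.9% with *DUSP6* siRNA, and *APOL2* goes from 87.6% to 63.6% of the APOL sum.

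The other genes of both families were near the limit of detection or did not pass the test. *GBP5* had 1, 2 and 4 reads with scrambled and 8, 3 and 4 with *DUSP6* siRNA (edgeR log2 fold change 1.16, adjusted p = 0.252), *GBP6* had at most 2 reads in any library, and so did *GBP7*, a gene that overlaps some transcripts of *GBP2*. The pseudogene *GBP1P1* had 0, 0 and 1 reads against 4, 2 and 7, and edgeR called it higher (3.36, adjusted p = 0.0325), with the uncertainty about shared reads given for *GBP1*. *APOL5* had at most 4 reads in any library. *APOLD1*, a more distant relative expressed in vessel walls, was the only gene of these 6 that limma tested and did not pass (-0.35, limma adjusted p = 0.150).

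Along the chromosomes the genes of a family lie together (hg38, positions from GENCODE 44). *GBP3* lies at chr1:89006679-89022894, *GBP1* at chr1:89051882-89065360, *GBP2* at chr1:89106132-89150456 and *GBP4* at chr1:89181144-89198942, all on the minus strand with 11 exons each in the main transcript. The 1 member that fell, *GBP2*, thus lies between *GBP1* and *GBP4*. *APOL6* lies at chr22:35648446-35668404 on the plus strand. Farther along are *APOL3* at chr22:36140329-36166177, *APOL4* at chr22:36189124-36204840 and *APOL2* at chr22:36226209-36239954 on the minus strand and *APOL1* at chr22:36253071-36267530 on the plus strand. The reads were assigned with default settings, which do not use strand, but no exon in the main transcript of the APOL members or of *GBP1*, *GBP2* or *GBP3* overlaps an exon of another annotated gene, and for *GBP4* 2.4% of the exon bases do.

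Of the 13 protein-coding neighbours, limma tested 12, and 2 were higher, 3 lower and 7 not called, near the 19.7% higher and 24.7% lower of all genes tested. Beside the GBP genes, *GTF2B*, a general transcription factor, was higher by 0.38 on the log2(value + 1) scale (limma adjusted p = 0.0284, lost without *DUSP6* siRNA replicate 1, 2 or 3 at 0.0535, 0.103 and 0.102), and *LRRC8C*, a subunit of volume-regulated anion channels, by 0.60 (adjusted p = 0.00212). *KYAT3*, *RBMXL1*, *LRRC8B* and *LRRC8D* did not pass, with differences of 0.17, -0.25, -0.09 and -0.27 (limma adjusted p = 0.192, 0.0808, 0.516 and 0.0515). *RBMXL1* passed without scrambled siRNA replicate 2 (adjusted p = 0.0180) and *LRRC8D* without scrambled siRNA replicate 3 (adjusted p = 0.00797), by limma in both cases. Next to *APOL6*, *MB*, which encodes myoglobin, fell from 7.95 ± 0.578 to 1.54 ± 0.130 (SD, n = 3), and the replication factor gene *MCM5* fell by 0.82 on the log2(value + 1) scale (limma adjusted p = 4.53e-04). *RBFOX2*, which lies between *APOL6* and *APOL3*, was at -0.12 (limma adjusted p = 0.315). Beyond *APOL1*, *MYH9* and *TXN2* did not pass, at 0.12 and -0.10, and *FOXRED2* was at -0.42 (limma adjusted p = 0.0480, lost in 10 alternative fits). *RASD2*, with mean values of 0.576 and 1.09, fell under the limit of the test.

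**Figure D4:**
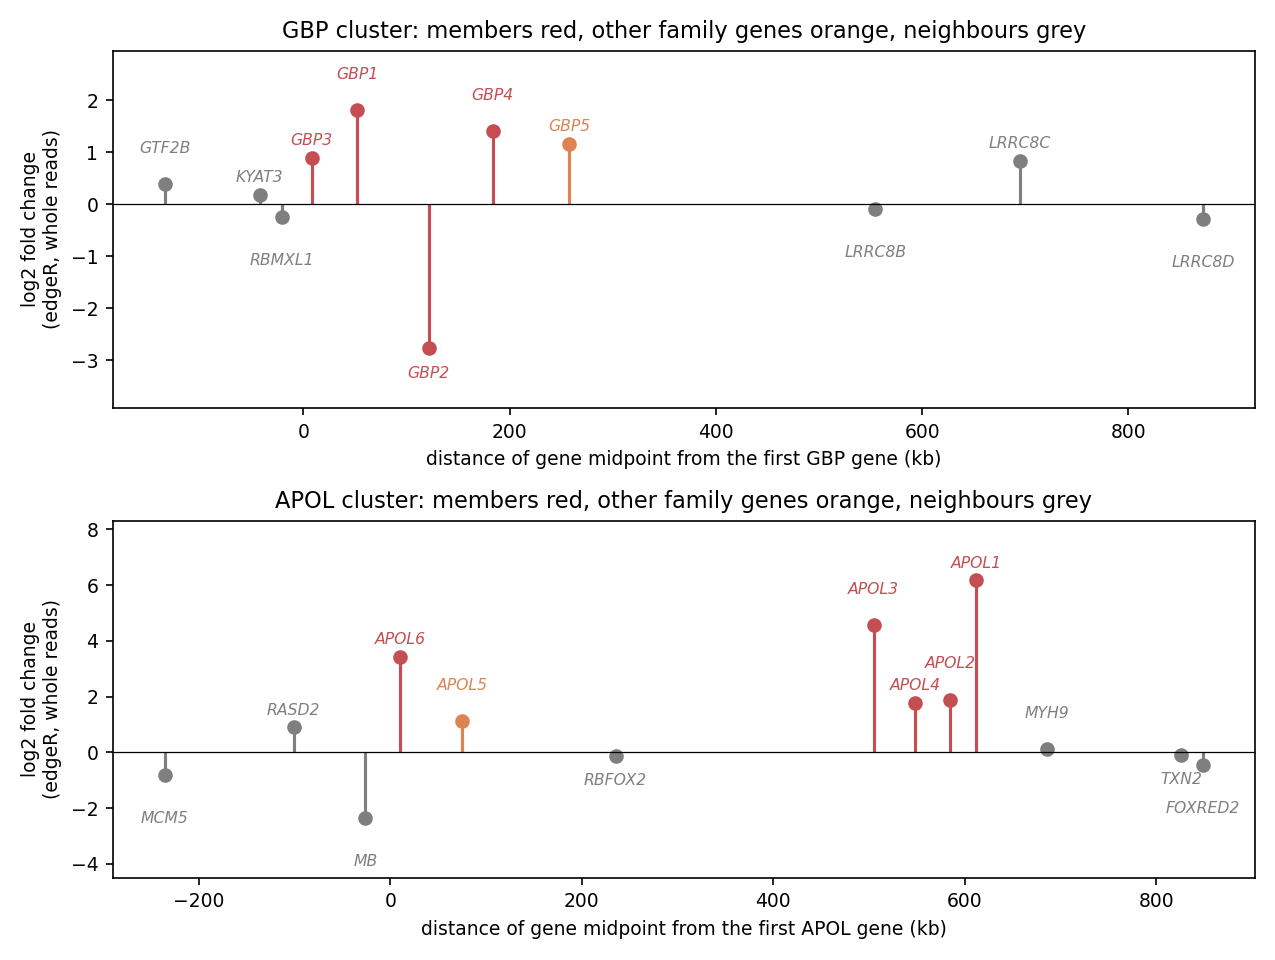
Log2 fold change from edgeR on recovered reads, *DUSP6* siRNA against scrambled siRNA, of the genes of each family and their protein-coding neighbours, by the distance of the gene's midpoint from the first gene of the family (kb). *GBP2* points down at -2.77 between *GBP1* and *GBP4*, and *MB* points down next to *APOL6*. *GBP6* and *GBP7*, with under 10 reads in all, are not drawn.

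Genes of interferon signalling, both activating and inhibiting, were examined in the same fit. Of 22 genes of interferon signalling, *IFNG* was not analysed here, 2 were under the limit, and of the 19 tested by limma 13 were higher, 1 was lower and 5 did not pass, beside 19.7% higher and 24.7% lower over all genes tested. *IFNB1*, *IFNL1* and *SOCS1* reached the limit only through the *DUSP6* siRNA libraries, and *SOCS1* and *USP18*, which are among the 13, encode inhibitors of the pathway. The median difference of the list, these genes included, was 0.56 on the log2(value + 1) scale, beside -0.01 over all genes tested. *IRF9*, the DNA-binding part of the complex that recognises the response element marked in the promoters above, rose from 17.2 ± 8.03 to 222 ± 2.71, and its partner *STAT2* from 56.1 ± 3.40 to 162 ± 21.0 (SD, n = 3), differences of 3.70 and 1.51 (limma adjusted p = 1.07e-05 and 2.18e-05). *IRF7*, a factor that amplifies interferon production, rose from 24.4 ± 7.65 to 163 ± 32.1, a difference of 2.71 (limma adjusted p = 2.74e-05). *IRF1*, the factor through which interferon gamma induces many GBP genes, rose from 7.34 ± 0.239 to 38.7 ± 5.99, a difference of 2.24 (limma adjusted p = 5.41e-06). The interferon lambda gene *IFNL1* went from 1, 2 and 10 reads to 756, 639 and 1001 reads. The 1 gene that fell was *IRF2*, which competes with IRF1 for its sites (-0.92, limma adjusted p = 0.00136). The receptor genes for interferon gamma did not pass, *IFNGR1* at 0.09 (adjusted p = 0.472) and *IFNGR2* at -0.05 (adjusted p = 0.775) by limma. *GBP2* was thus lower in the same libraries in which *IRF1* and *IRF9* were higher. Whether the siRNA itself or the loss of *DUSP6* goes with these levels cannot be told apart in this design.

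**Figure D5:**
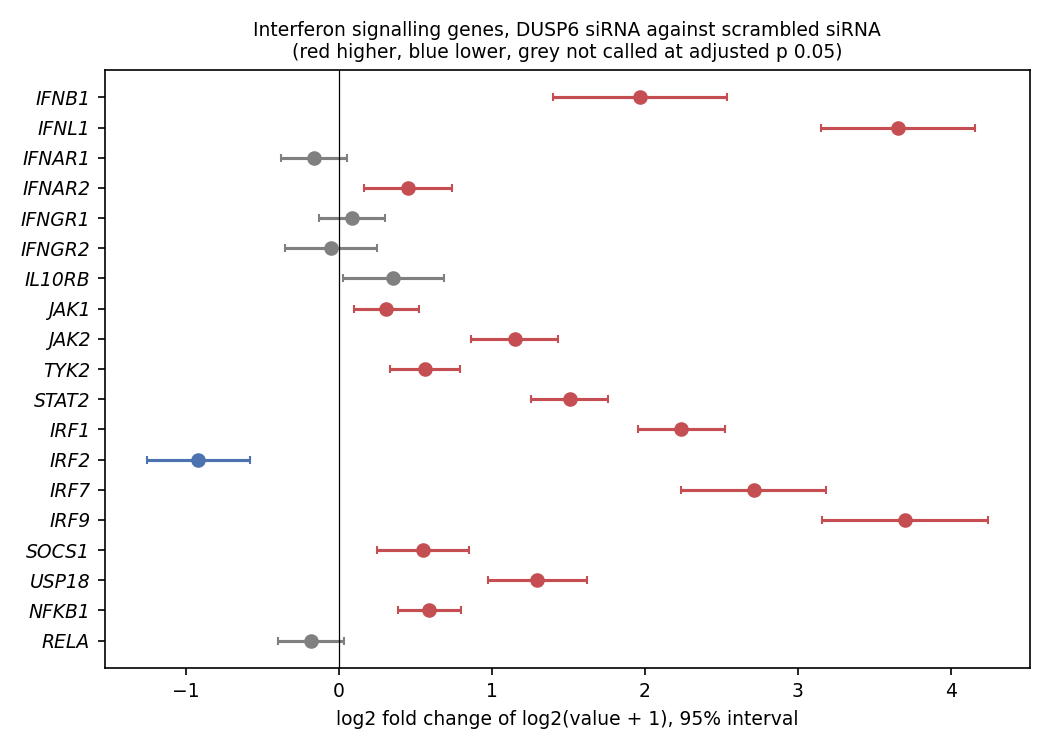
Difference on the log2(value + 1) scale with its 95% interval, *DUSP6* siRNA against scrambled siRNA, for the 19 tested genes of interferon signalling (limma, red higher, blue lower, grey not called at adjusted p 0.05). *IRF9*, *IFNL1* and *IRF7* lie farthest to the right, *IRF2* is the 1 gene called lower, and *IFNGR1* and *IFNGR2* lie across 0.

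A list of 9 other genes, mainly for large GTPases, was also examined. Of these, 6 were tested by limma, and 4 were higher and none lower (median 0.46), beside 19.7% higher and 24.7% lower over all genes tested. *RNF213*, 1 of the 4, encodes a giant ubiquitin ligase with antibacterial activity and not a GTPase. It was higher by 1.46 and *MX1*, an antiviral dynamin-like GTPase, by 1.22 (limma adjusted p = 6.42e-05 and 1.27e-04). *IRGQ* followed at 0.53 (limma adjusted p = 0.00261). *MX1*, with means of 0.571 and 2.66, reached the limit only through the *DUSP6* siRNA libraries. Of 9 genes that attach the lipid anchor of GBPs or act with them in the inflammasome, *AIM2* was not analysed here, 7 were tested, 1 was higher and 1 lower (median 0.01), beside the same shares over all genes. The higher one was *RCE1*, a protease that trims prenylated proteins (0.40, limma adjusted p = 0.0186), and the lower one was *ICMT*, which methylates them (-0.37, limma adjusted p = 0.0106). The call of *RCE1* was lost without scrambled siRNA replicate 1 (0.0510) or *DUSP6* siRNA replicate 1 (0.0598) or 2 (0.0842), and that of *ICMT* without *DUSP6* siRNA replicate 3 (0.0578), all limma adjusted p-values. Of 4 genes for partners of APOL proteins, 2 were tested and neither was called (median -0.09), *APOA1* and *HPR*, which travel with APOL1 in serum, having at most 3 reads in any library.

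The genes whose profile over the 6 libraries was most like that of 2 of the members were listed by the Euclidean distance between centred log2(value + 1) values among the tested genes. For *APOL1* they were *IFIT1B*, *TRANK1* and *C3*, at distances of 0.152, 0.400 and 0.425. Their own differences were 3.88, 3.93 and 3.82 on the log2(value + 1) scale, near that of *APOL1*, as a choice by profile brings with it. *IFIT1B* and *C3*, with scrambled siRNA means of 0.107 and 0.0912, were among the tested genes only through the *DUSP6* siRNA libraries. For *GBP1*, whose values stayed under 1 in every library, they were *PARP3*, *MIR570* and *NPIPA9*, at distances of 0.115, 0.124 and 0.129. Their own differences were only 0.33, 0.33 and 0.28 on the log2(value + 1) scale, which understates the change of a gene as low as *GBP1*. The smaller distances are therefore not a closer likeness than that found for *APOL1*.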

How the data were processed

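RNA from 3 scrambled siRNA and 3 *DUSP6* siRNA libraries was made with a TruSeq Stranded kit and sequenced on a NovaSeq. The authors aligned the reads to hg38 and assigned them to RefSeq gene models with Rsubread at default settings, and the submitters' processing notes also name bcl2fastq and edgeR. The deposited values are a normalised signal per gene and library, in scaled CPM. All values were whole multiples of 1 step per library (100% within 0.001 of a read), and the steps matched edgeR's TMM factors to 2.44e-15, so whole reads were recovered. Depth and composition are thus already adjusted for, and intervals rest on the spread between libraries.

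Genes whose mean over the 6 libraries reached 1 (12862 of 22807) were tested with limma 3.58.1 (lmFit, eBayes with a trend, R 4.3.3) on log2(value + 1), which is the transformation the study states, although it gives no base, and p-values were adjusted by Benjamini-Hochberg over all of them, with a threshold of 0.05. As 4 of the 9 genes fell under this limit, edgeR 4.0.16 (quasi-likelihood) was run on the recovered reads of the 18500 genes with at least 10 reads in all, a choice made after seeing the data. DESeq2 1.42.0 was an alternative, as were pseudocounts, filters, scalings, the replicate block and leaving out each library. The fits were tested on simulated data. The members and gene lists were chosen with earlier results of these data known. Some genes of the lists are not reported here and were left out of their counts. Genes were named by rule: the 9 members, *DUSP6*, other family genes, *STAT2*, *IRF1* and *IRF9*, up to 3 called genes with the largest change per list, the neighbours, and the 3 nearest profiles. Others were named after their values were seen (*IRF2*, *IFNGR1*, *IFNGR2*, *IFNB1*, *SOCS1*, *USP18*, *COL1A1*, *CD68*, *EPCAM*, *PGR* and markers with few reads). Positions, transcript lengths and neighbours came from GENCODE 44. The difference of all genes was near 0, with a median of -0.01.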

Additional observations from a re-analysis of the deposited data

How the results depend on the processing

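*APOL1*, *APOL2*, *APOL3*, *APOL6* and *GBP2* kept their direction and call under every alternative that could test them, the replicate block included, and the set had 4 higher and 1 lower call whichever library was left out. With no filter 7 members were higher by limma, and at a mean value of at least 10 only 2, as *APOL1* and *APOL3* then fell under the filter. Depth limits *GBP1*, *GBP3*, *GBP4* and *APOL4*, which had 1 to 33 reads per library. Leaving out 1 library moved the edgeR log2 fold change of *GBP1* from 1.40 to 2.35, of *GBP3* from 0.56 to 1.68, of *GBP4* from 1.15 to 2.15 and of *APOL4* from 1.47 to 1.96. limma without a filter gave 0.11 and a call for *GBP4*, and DESeq2 gave 1.78 and no call for *APOL4*.

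Over all genes, a mean value of at least 10 left 1639 higher calls. With 1 library left out there were 1574 (without *DUSP6* siRNA replicate 2) to 3183 higher and 2306 to 3581 lower. Among the other family genes, edgeR called 1 higher, and 0 to 1 was called lower by limma with 1 library left out (1 without scrambled siRNA replicate 3). Among the lipid modification and inflammasome genes, lower calls were 0 under quantile normalization, 2 with DESeq2 and 2 under the replicate block, and with 1 library left out 0 to 1 was higher and 0 to 2 lower. Of the APOL partners, 1 was higher under quantile normalization and 0 to 1 lower with 1 library left out (1 without scrambled siRNA replicate 2). In the interferon signalling list 1 to 2 were lower with 1 library left out (2 without scrambled siRNA replicate 3). A pair of neighbours reversed sign, *MYH9* at -0.0046 without scrambled siRNA replicate 3 (up to 0.21 with another library left out) and *TXN2* at 0.049 under quantile normalization, and quantile normalization called *MYH9* higher (0.45, adjusted p = 0.0121 by limma) and left *ICMT* uncalled (-0.23, adjusted p = 0.0601 by limma). For these, the cause was not tested.

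With values divided by transcript length, the change in share of the family sum was 14.4 percentage points for *GBP1* (11.1 undivided), -30.8 for *GBP2* (-25.9), 14.4 for *GBP3* (11.6), 1.98 for *GBP4* (3.24), -18.6 for *APOL2* (-24.0), 5.88 for *APOL3* (4.00) and 3.61 for *APOL6* (11.4). Over all tested genes the replicate numbers showed no pairing of the libraries. The correlations of same-numbered libraries' deviations from the group means were 0.005, 0.0868 and -0.0764. The block changed no call of a member. It lowered the limma SE of *GBP2* from 0.31 to 0.18, of *DUSP6* from 0.25 to 0.14 and of *APOL6* from 0.18 to 0.15. The SE of *APOL1* rose from 0.116 to 0.133, of *APOL2* from 0.116 to 0.127 and of *APOL3* from 0.136 to 0.146. Pairing for single genes was not tested.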
